A study of Mus musculus with 12 samples.

Results

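The mitosis genes described here are 46 genes, taken by symbol from a deposited table of 24107 mouse genes in 12 RNA-seq libraries. They encode the kinases that drive a cell into division, the proteins of the kinetochore and of the checkpoint that watches it, the motors and cross-linkers of the spindle, and the proteins that pack chromosomes and cut the cell apart. All 46 passed the filter on low values (an FPKM of 1 or more in 3 or more libraries, met by 11462 genes). FPKM scales the reads of a gene by its length and by the size of the library, so levels can be set side by side between genes.

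The libraries come from bone marrow cells of C57BL/6 mice, in 4 groups of 3. Control MEP (megakaryocyte-erythroid progenitors, the marrow cells that give rise to platelets and red cells) and control marrow, which is unselected, came from mice of wild-type genotype. The other groups, leukemic MEP and GFP+ marrow, are cells of genotype Prdm16s from recipient mice with leukemia; Prdm16s is the short form of the zinc finger protein Prdm16. Genotype, leukemia and being a recipient go together in these groups and cannot be told apart, and in marrow the selection of GFP+ cells goes with them too. The labels give no ages and do not tie libraries to single mice. The p-values therefore rest on a spread between libraries that may be technical. In bulk RNA, fewer dividing cells and less of a transcript per cell cannot be told apart.

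Prdm16 was at 0.363 to 0.957 FPKM in the 6 control libraries and at 6.35 to 15.3 in the 6 Prdm16s libraries. The library labelled leukemic MEP 3 stood apart from its group and had markers that go against its label. In leukemic MEP 1, 2 and 3 the granulocyte gene Mpo had an FPKM of 167, 150 and 7900, and Gata1, the transcription factor of red cells and platelets, one of 242, 210 and 37.7. The reads behind the FPKM values came to 6.72 M or more in 10 libraries, but to 0.572 M in leukemic MEP 3 and 1.15 M in GFP+ marrow 2. A mitosis gene held a median of 81 reads in leukemic MEP 3 (14 to 212) and 91 in GFP+ marrow 2 (14 to 412), where counting error alone at the median is 11.1% and 10.5%. In the other 10 libraries the median was 684.5 to 1531 reads and that error 2.56 to 3.82%.

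Mitosis starts when cyclin B and cyclin A activate the kinase Cdk1, after Cdc25 phosphatases have removed its inhibitory phosphates. Plk1 and the Aurora kinases then build the spindle, and the checkpoint proteins hold back the ubiquitin ligase APC/C until every kinetochore is attached; APC/C with its activator Cdc20 then destroys cyclin B and lets the chromosomes part. The transcripts of most of these proteins peak late in the cell cycle and are kept low in resting cells by protein complexes that bind a short promoter element, the cell cycle homology region (CHR), while NF-Y on CCAAT boxes drives them. In marrow they mark the dividing progenitors and precursors of each blood lineage.

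To show that element, the 120 bases before the transcription start are given for 8 selected genes. They are the kinase subunit gene Cdk1 and its cyclins Ccnb1 and Ccnb2, and the genes Cdc20, Plk1, Cenpa, Aurka and Cdc25b. Where a CHR lies just after the start, 24 bases round it are given too. Sequences are from the RefSeq promoter table, build GRCm38.p6, 5′ to 3′ on the gene's strand. Capitals mark TTTGAA (CHR) and CCAAT, or ATTGG where the CCAAT box is on the other strand.
Cdk1, chr10:69352913-69353032, minus strand: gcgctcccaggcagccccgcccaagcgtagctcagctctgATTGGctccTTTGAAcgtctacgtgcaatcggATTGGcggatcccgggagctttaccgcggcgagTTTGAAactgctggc
Ccnb2, chr9:70421555-70421674, minus strand: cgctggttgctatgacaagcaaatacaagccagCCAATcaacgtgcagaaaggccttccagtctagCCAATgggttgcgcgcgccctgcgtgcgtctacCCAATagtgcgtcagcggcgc
Ccnb2 after the start, chr9:70421536-70421559, minus strand: ggcgcggtaTTTGAAtcgcggacc
Cdc20, chr4:118437344-118437463, minus strand: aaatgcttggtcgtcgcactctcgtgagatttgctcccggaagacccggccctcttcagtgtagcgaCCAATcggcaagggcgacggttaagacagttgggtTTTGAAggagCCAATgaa
Plk1, chr7:122159315-122159434, plus strand: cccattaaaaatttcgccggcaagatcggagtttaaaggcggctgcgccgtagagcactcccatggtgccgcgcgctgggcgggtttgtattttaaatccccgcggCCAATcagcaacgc
Plk1 after the start, chr7:122159456-122159479, plus strand: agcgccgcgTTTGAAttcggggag
Cenpa, chr5:30666766-30666885, plus strand: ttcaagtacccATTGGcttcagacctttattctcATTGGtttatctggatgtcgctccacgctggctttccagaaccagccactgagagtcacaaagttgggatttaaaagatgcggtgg
Cenpa after the start, chr5:30666893-30666916, plus strand: gggtgatttTTTGAActgctggcg
Aurka, chr2:172370571-172370690, minus strand: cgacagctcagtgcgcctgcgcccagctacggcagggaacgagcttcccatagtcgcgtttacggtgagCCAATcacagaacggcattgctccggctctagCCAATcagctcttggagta
Aurka after the start, chr2:172370524-172370547, minus strand: aggagaaccTTTGAAttgtaacgg
Ccnb1, chr13:100786487-100786606, minus strand: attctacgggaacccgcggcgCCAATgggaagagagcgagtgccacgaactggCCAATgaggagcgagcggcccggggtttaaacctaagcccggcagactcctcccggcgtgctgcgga
Cdc25b, chr2:131186828-131186947, plus strand: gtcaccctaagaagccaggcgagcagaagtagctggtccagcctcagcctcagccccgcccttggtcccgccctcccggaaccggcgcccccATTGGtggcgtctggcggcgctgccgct

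Of the 46 genes, 39 have a promoter window in the table, from 250 bases before the start to 50 after it. Ccna2, Cdc25c, Aurkb, Incenp, Kif20a, Tpx2 and Smc4 have none. TTTGAA, searched on both strands, was in a window of 30 of the 39 genes (76.9%), against 20.2% of 27025 genes with a window. In 27 genes it lay within 50 bases of the start, and in 22 at least 1 copy was on the gene's own strand. CCAAT was found in 29 genes (74.4%, against 41.1% of all genes), and both words in the same window in 25 (64.1%, against 7.97%). The windows of mitosis genes had a median GC content of 59%, against 52.7%, so base composition is not the same in the sets compared.

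The 9 genes with a window but no TTTGAA were Ccnb1, Cdc25b, Birc5, Bub1, Mad2l1, Cenpe, Nuf2, Nusap1 and Ncaph. Its absence holds only for the starts in the promoter table. The annotated Cdc25b gene begins further upstream, at chr2:131186436, so its bases printed above lie within the gene. Those of Aurka do too (gene from chr2:172370886, minus strand). The related word TTCGAA, which reads the same on both strands, was in 4 genes (10.3%, against 1.8% of all genes), with 1 copy in Cdc25b 8 bases after its start and 1 in Bub1. GCGGGAA, an E2F word, was in 1 of the 39 genes (2.56%, against 5.29% of all genes). The same 4 words were counted in 2 other lists: 44 genes of DNA replication and 145 further genes of mitosis (APC/C subunits, cohesin, inner and outer kinetochore, centrosome and others). Of 37 replication genes with a window 18.9% held TTTGAA and 43.2% held GCGGGAA, and of 122 further mitosis genes 33.6% and 21.3%. A match describes letters in a window and is not a measured binding site.

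**Figure D1:**
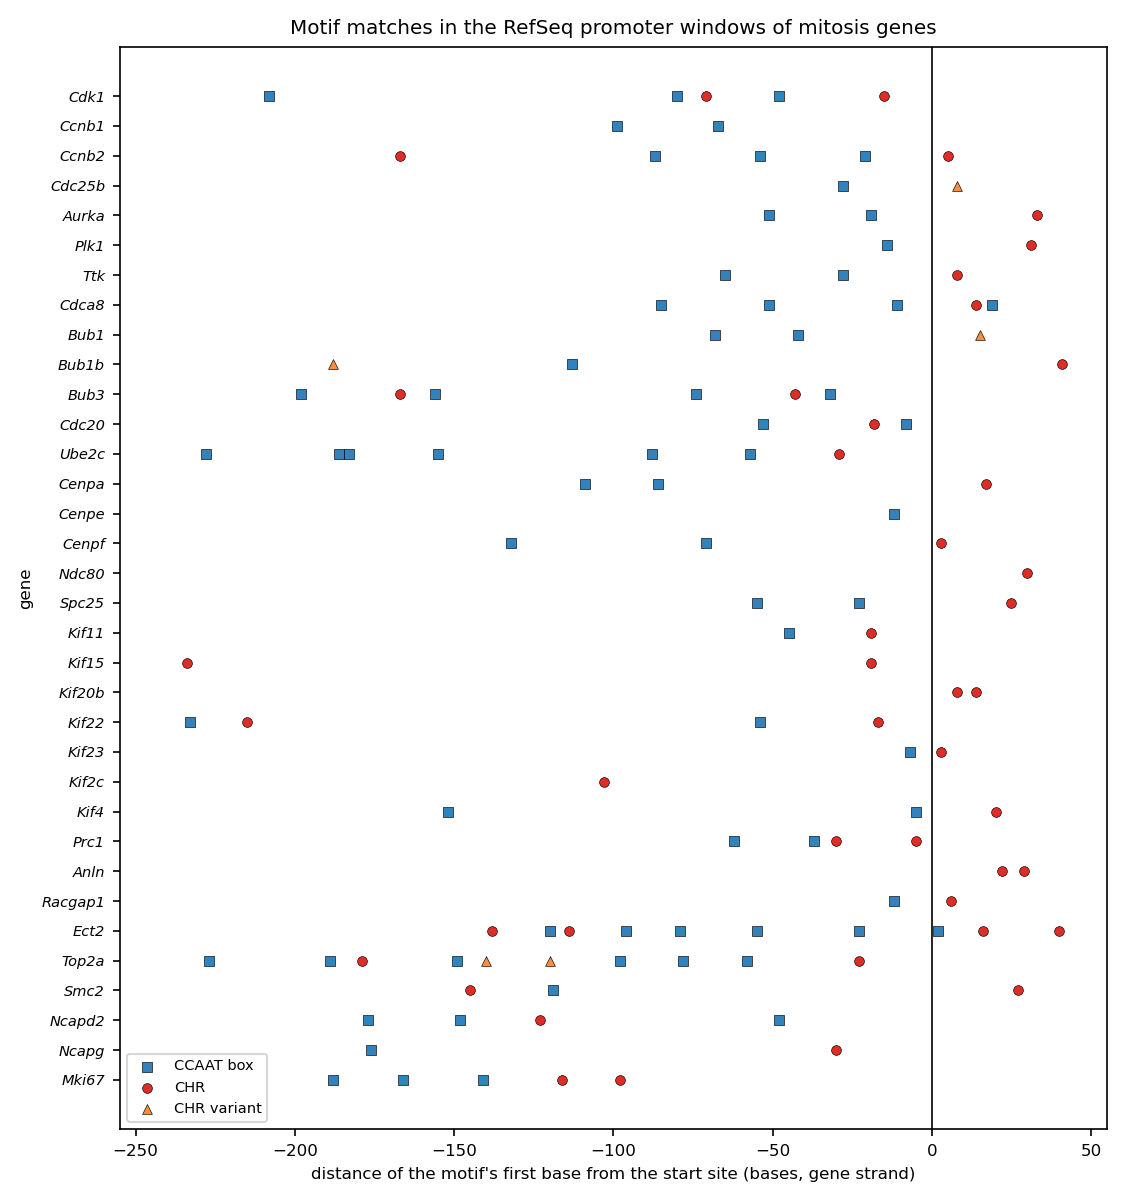
Position of the first base of each match to CCAAT (blue squares), TTTGAA (CHR, red circles) and TTCGAA (CHR variant, orange triangles), in bases from the transcription start on the gene's strand, for the mitosis genes with at least 1 match. Matches to TTTGAA gather round the start (27 genes within 50 bases), and those to CCAAT lie mostly before it.

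The first comparison sets Prdm16s progenitors against wild-type ones (leukemic MEP minus control MEP). The Cdk1-activating phosphatase gene Cdc25b rose 5.99-fold on the log2(FPKM + 1) scale, and 5 genes fell by 1.6- to 2.26-fold: the centromere histone gene Cenpa, the kinase genes Plk1 and Aurka, and the cyclin genes Ccnb1 and Ccna2. These 6 of 46 genes (13%) passed the test (limma, Benjamini-Hochberg adjusted p below 0.05 over all genes tested), whereas 26% of all genes did, 13.7% higher and 12.3% lower. The other 40 did not pass, the proliferation marker Mki67, the topoisomerase gene Top2a and Cdk1 among them. Most estimates were below 0 all the same: 36 of 46, with a median log2 change of -0.23 (all genes, 0.02). Without control MEP 1 the estimates below 0 were 26 of 46 and the median -0.19, and without leukemic MEP 1 they were 29 and -0.10. In 8 genes each leukemic MEP library lay below each control MEP library (Ccna2, Ccnb1, Aurka, Plk1, Cenpa, Kif15, Kif22 and Anln; 19.7% of all genes did so), and in 1, Cdc25b, above (21.1% of all genes).

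Among the genes of Cdk1 control, Cdc25b was read at 2.66, 3.03 and 2.35 FPKM in control MEP 1, 2 and 3, and at 21.1, 17.1 and 25.5 in the leukemic libraries. The lowest leukemic library was far above the highest control library. The log2 change was 2.58 ± 0.26 (SE; adjusted p = 3e-05), and 2.45 without leukemic MEP 3 (adjusted p = 4.24e-05). Its size depends on the pseudocount, since the control level is low: the log2 change was 2.93 with a pseudocount of 0.1 and 1.76 with 5, and passed with both. The 3 leukemic MEP libraries also lay above the marrow libraries (8.79 to 14.6 FPKM in the 6 of them). In reads, Cdc25b rests on 78, 71 and 53 in the controls and on 740, 440 and 48 in leukemic MEP.

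The cyclin genes went the other way. Ccnb1, which encodes the cyclin that carries Cdk1 into mitosis, was at 66.9, 62.7 and 63.6 FPKM in the control libraries and at 27.7, 61.2 and 31.1 in the leukemic ones (log2 change -0.76 ± 0.25, adjusted p = 0.0445). Leukemic MEP 2 was close to the controls and the other 2 were well under them. Ccna2, whose cyclin acts in S phase and up to mitotic entry, was at 131, 103 and 106 in control and at 49.9, 76.5 and 86.4 in leukemic MEP (-0.70 ± 0.24, adjusted p = 0.0473). Its groups were separate, with leukemic MEP 1 the lowest. Ccnb2, the second cyclin B, was at 232, 263 and 250 and at 188, 255 and 115, and did not pass (-0.49 ± 0.25, adjusted p = 0.177). Leukemic MEP 2 lay inside the control range. Cdk1 itself was at 81.7, 112 and 99.4 and at 69.9, 96.6 and 87.2 (-0.21 ± 0.20, 95% interval -0.63 to 0.22, adjusted p = 0.464), with overlapping groups. Cdc25c, the other Cdc25 phosphatase gene of the list, had means of 14.8 ± 2.18 (control) and 16.1 ± 5.34 FPKM (leukemic) (SD, n = 3 each; log2 change 0.08).

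All 4 mitotic kinase genes had a lower mean in leukemic MEP, and 2 passed. Plk1, which acts at centrosomes, kinetochores and the cleavage furrow, was at 95.2, 102 and 76 FPKM in the control libraries and at 52.9, 45.8 and 59.3 in the leukemic ones. The highest leukemic library stayed below the lowest control (-0.77 ± 0.18, adjusted p = 0.00843). Aurka, the kinase of the spindle poles, was at 97.8, 111 and 83.4 and at 43.5, 72.7 and 68.7 (-0.68 ± 0.22, adjusted p = 0.0431). Aurkb, the kinase of the chromosomal passenger complex, was at 106, 126 and 111 and at 78.7, 109 and 85.2 (-0.34 ± 0.20, adjusted p = 0.232), and its groups overlapped. Ttk, the kinase that starts checkpoint signalling, had a change of -0.49. The other passenger genes Incenp, Birc5 and Cdca8 had changes of -0.03 to -0.47, none past the test.

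The checkpoint and APC/C genes held no gene that passed. Mad2l1, whose protein joins the complex that inhibits Cdc20, was at 143, 161 and 150 FPKM in the control libraries and at 94, 162 and 83 in the leukemic ones (-0.48 ± 0.25, adjusted p = 0.176). Leukemic MEP 2 was again at the control level. Bub1b was at 65.5, 26.9 and 33.4 and at 19.6, 27.5 and 49.7 (-0.37 ± 0.37, adjusted p = 0.497), with a spread inside each group larger than the difference. Cdc20 was at 134, 157 and 121 and at 103, 128 and 97.7 (-0.32 ± 0.20, adjusted p = 0.26). Ube2c, the ubiquitin carrier enzyme of APC/C, was at 174, 310 and 249 and at 156, 265 and 243 (-0.14 ± 0.25, interval -0.69 to 0.41, adjusted p = 0.722). For both genes the groups overlapped. Bub1 and Bub3 had changes of -0.67 and -0.16.

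At the kinetochore, Cenpa stood alone. The gene encodes the histone H3 variant that marks the centromere, and it was among the most abundant of the 46 in control MEP, with 251, 357 and 291 FPKM. Leukemic MEP had 137, 162 and 99.5, all below the controls (-1.18 ± 0.23, adjusted p = 0.00278; -0.99 without leukemic MEP 3, adjusted p = 0.00379). The other 5 genes of the group, the motor gene Cenpe, Cenpf and the Ndc80 complex genes Ndc80, Nuf2 and Spc25, had changes of -0.12 to 0.40, and none passed.

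None of the 8 kinesin genes, 6 genes of spindle assembly and cytokinesis or 7 genes of chromosome structure passed. Kif22, a chromosome arm motor, came nearest (131 ± 25.3 against 89.3 ± 22.9 FPKM, SD, n = 3 each; -0.56 ± 0.23, adjusted p = 0.0885). Kif23 and Racgap1, which encode both subunits of the centralspindlin complex of the midzone, had the highest estimates after Cdc25b: 0.77 ± 0.38 (adjusted p = 0.163) and 0.64 ± 0.30 (adjusted p = 0.142). Kif23 was at 7.03, 4.59 and 3.08 in control and at 4.87, 9.08 and 14.3 in leukemic MEP, so leukemic MEP 1 lay within the control range. Ect2, the exchange factor that centralspindlin recruits, had an estimate of the opposite sign (-0.74 ± 0.40, adjusted p = 0.193). Anln, the anillin gene of the contractile ring, was at 21.9, 12.5 and 11.8 and at 4.16, 9.89 and 11.7 (-0.82 ± 0.39, adjusted p = 0.145); its groups were separate by a narrow margin.

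Top2a, which untangles sister chromatids, was at 103, 57.5 and 72.4 FPKM in the control libraries and at 53.9, 107 and 63.8 in the leukemic ones (-0.07 ± 0.30, interval -0.73 to 0.59, adjusted p = 0.891). Mki67, the gene of the Ki-67 antigen used to count cycling cells, was at 23.2, 15.9 and 15.8 and at 12.4, 28 and 18.3 (0.04 ± 0.32, interval -0.65 to 0.73, adjusted p = 0.939). In both genes leukemic MEP 1 and 2 were further apart than the group means. The condensin genes Smc2, Smc4, Ncapd2, Ncapg and Ncaph had changes of -0.70 to -0.19.

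**Figure D2:**
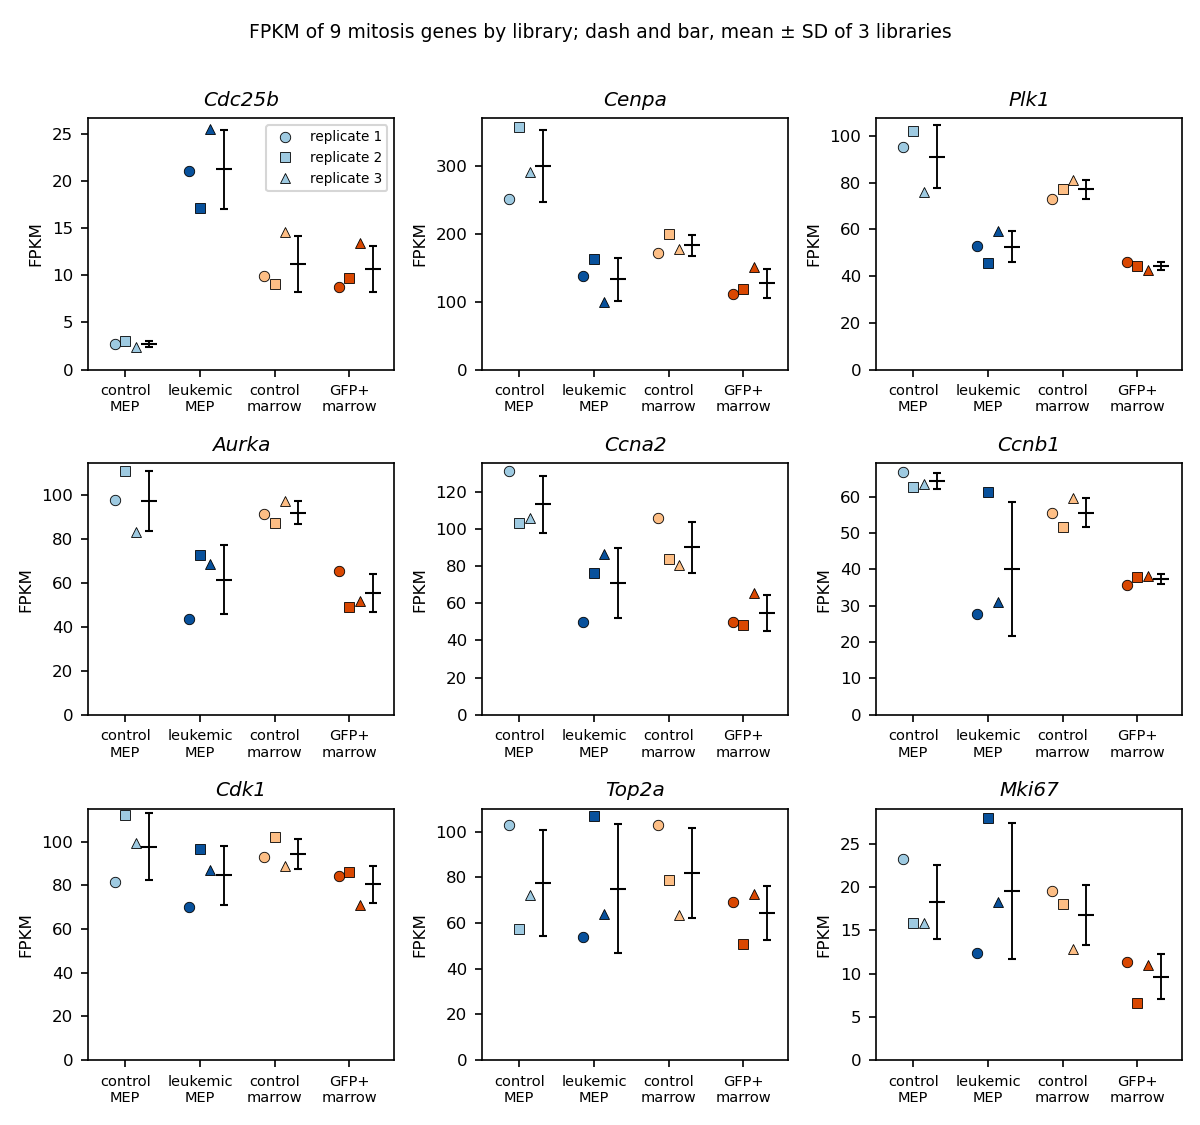
FPKM (linear axes from 0) of 9 mitosis genes in each of the 12 libraries; circles, squares and triangles are replicates 1, 2 and 3, and the dash and bar give the mean ± SD of 3 libraries. Cdc25b is highest in leukemic MEP (17.1 to 25.5) and lowest in control MEP (2.35 to 3.03), Cenpa and Plk1 are lower in both Prdm16s groups, and Cdk1, Top2a and Mki67 overlap between the MEP groups.

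Of the calls in MEP, those of Cdc25b and Cenpa were kept in each of 24 alternatives, and that of Plk1 in 22 (not with quantile normalization or in a fit of the MEP groups alone). Ccna2, Ccnb1 and Aurka lost theirs in 16, 18 and 14 of them. The count was 3 (Cdc25b, Plk1 and Cenpa) without any 1 of control MEP 1, 2 or 3, leukemic MEP 1, control marrow 1, 2 or 3, or GFP+ marrow 1 or 2. It was 5 without leukemic MEP 3, where Ccnb1 did not pass (-0.63, adjusted p = 0.0977). Over all genes the MEP calls were 1938 to 2847 in the former fits and 3114 in the latter, against 2976 in the main fit. Reads of Ccna2 may hold some of Exosc9, and those of Aurka some of Cstf1, since these genes overlap and it is not stated whether strand was counted; Ccnb1 has a pseudogene, Ccnb1-ps. No annotated gene overlaps Cdc25b, Plk1 or Cenpa.

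Cell type markers moved with the MEP groups. The summed level of 5 granulocyte precursor markers was 10.1 to 109 FPKM in the control libraries and 576, 811 and 22900 in leukemic MEP 1, 2 and 3, and that of 8 mature neutrophil markers 16.9 to 292 and 491, 1700 and 72100. The 10 erythroid markers summed to 6420 to 7670 in control and to 2310, 2710 and 479 in leukemic MEP. The 7 megakaryocyte markers summed to 9.66 to 124 and to 5690, 4660 and 299. Sums of lymphoid markers were higher in the leukemic libraries too, but single markers did not all rise. The 6 T and NK cell markers summed to 17 to 88.5 in control and 381 to 612 in leukemic MEP. At 0 were 3, 4 and 3 of them in control MEP 1, 2 and 3 and 3, 5 and 3 in leukemic MEP. Klrd1 was at 0 in each leukemic library and in no control library. The 6 B cell markers summed to 1.65 to 3.74 and 28.8 to 76.2. At 0 were 2, 3 and 3 of them in control and 4, 4 and 1 in leukemic MEP, with Pax5 at 0 in all 6 libraries. Monocyte and macrophage markers summed to 2.67 to 9.49 in the controls and to 8.75, 6.07 and 211 in leukemic MEP 1, 2 and 3, and stem and early progenitor markers to 71 to 154 and 140 to 160. Slc4a1, an erythroid marker of late stages, was at 0 in leukemic MEP 2 and 3 and also in control MEP 1. The part of these shifts in the changes of mitosis genes was not tested.

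The second comparison asks the same of marrow (GFP+ Prdm16s cells minus unselected control marrow). Nearly all mitosis genes had a lower mean in GFP+ marrow, but 45 of 46 did not pass the test. Of the estimates, 43 of 46 were below 0, with a median log2 change of -0.48 (all genes, -0.05). Plk1 was the gene that passed, 1.72-fold lower. That is 1 of 46 genes (2.17%), against 9.05% of all genes, of which 3.02% were higher and 6.03% lower. In 24 genes each GFP+ marrow library lay below each control marrow library (19.6% of all genes did so), and in 0 above (17.6% of all genes). At an unadjusted p below 0.05 there were 16 of 46 (2740 of all 11462 genes), and in MEP 8 of 46 (4364 of all 11462 genes).

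Plk1 was at 73, 77.2 and 81.4 FPKM in control marrow and at 46.2, 44.2 and 42.8 in GFP+ marrow, with little spread in either group (-0.78 ± 0.18, adjusted p = 0.0181). It did not pass without control marrow 2 (adjusted p = 0.0728), control marrow 3 (0.0841) or GFP+ marrow 2 (0.0544). Aurka came next among the kinases, at 91.7, 87.3 and 97.7 and at 65.4, 49.2 and 52 (-0.73 ± 0.22, adjusted p = 0.0654), its groups far apart but its call missed. Aurkb was at 107, 113 and 125 and at 100, 75.9 and 105 (-0.30 ± 0.20, adjusted p = 0.384). The count of mitosis genes that passed was 5 without leukemic MEP 3 (Plk1, Ccna2, Aurka, Kif22 and Ncapd2), 3 without GFP+ marrow 1 (Plk1, Cdc25c and Ncaph) and 2 without leukemic MEP 1 (Plk1 and Aurka). Over all genes the marrow calls in these fits were 2137, 824 and 1029, against 1037 in the main fit. The rise without leukemic MEP 3 was thus not particular to mitosis genes.

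Of the genes of Cdk1 control, 5 of 6 had separate groups, lower in GFP+ marrow (19.6% of all genes did so), and 0 passed the test. Ccna2 was at 106, 83.6 and 80.7 FPKM in control marrow and at 50.2, 48.4 and 65.7 in GFP+ marrow (-0.71 ± 0.24, adjusted p = 0.088). Ccnb1 was at 55.6, 51.7 and 59.7 and at 35.8, 38 and 38.3 (-0.56 ± 0.25, adjusted p = 0.203). Ccnb2 was at 237, 220 and 240 and at 184, 177 and 163 (-0.41 ± 0.25, adjusted p = 0.355). In all 3 cyclin genes the GFP+ libraries lay under the controls, with GFP+ marrow 3 above the other 2 in Ccna2. Cdk1 was at 92.8, 102 and 88.7 and at 84.1, 86.2 and 70.9 (-0.23 ± 0.20, adjusted p = 0.509), separate by a small gap. Cdc25b was the exception, with 9.94, 9.05 and 14.6 against 8.79, 9.7 and 13.4 (-0.06 ± 0.26, interval -0.64 to 0.51, adjusted p = 0.918). Its groups covered nearly the same range.

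Among the checkpoint and APC/C genes the estimates were -0.02 to -0.65. Bub1b was at 41.3, 29.3 and 30.6 FPKM and at 23.8, 23.5 and 16.3 (-0.65 ± 0.37, adjusted p = 0.317). Mad2l1 was at 141, 120 and 126 and at 107, 128 and 90.2 (-0.26 ± 0.25, adjusted p = 0.569). Cdc20 was at 126, 130 and 134 and at 90.9, 92.2 and 129 (-0.34 ± 0.20, adjusted p = 0.342). GFP+ marrow 3 reached the control level of Cdc20, and GFP+ marrow 2 that of Mad2l1. Ube2c was at 209, 244 and 215 and at 173, 191 and 170 (-0.32 ± 0.25, adjusted p = 0.483), with separate groups.

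The lowest estimates were those of the condensin genes Ncaph (-1.36) and Ncapg (-1.11), the Ndc80 complex genes Nuf2 (-1.16) and Ndc80 (-0.98) and the motor genes Kif11 (-0.99) and Cenpe (13.1, 12.1 and 6.73 FPKM in control and 6.86, 5.45 and 2.51 in GFP+ marrow), with adjusted p from 0.0963 to 0.187. Condensin shapes the chromosome, and the Ndc80 complex holds it to microtubules. Nuf2 was at 42.4, 34 and 29.9 FPKM in control marrow and at 27, 26.5 and 4.48 in GFP+ marrow, and Ncaph at 34.2, 25.6 and 26.6 and at 21.2, 14 and 3.58. In both genes GFP+ marrow 3, a library of 9.44 M reads, was far below the other 2. Top2a was at 103, 78.9 and 63.6 and at 69.1, 50.8 and 72.8 (-0.33 ± 0.30, adjusted p = 0.548), with overlapping groups. Mki67 was at 19.5, 18 and 12.9 and at 11.3, 6.62 and 11 (-0.76 ± 0.32, adjusted p = 0.169), with separate ones. Cenpa, the gene with the largest fall in MEP, was at 171, 200 and 177 and at 111, 119 and 151 (-0.53 ± 0.23, adjusted p = 0.181). Spc25 and Nusap1 had an estimate of 0.00 and Anln one of 0.24.

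Erythroid markers summed to 3710 to 5340 FPKM in control marrow and to 207 to 715 in GFP+ marrow, stem and early progenitor markers to 212 to 298 and 81.2 to 130, and monocyte and macrophage markers to 750 to 821 and 193 to 373. Megakaryocyte markers summed to 141 to 210 and 194 to 514, and B cell markers to 104 to 120 and 71.1 to 114 (Pax5 and Ebf1 at 0 in all 3 GFP+ libraries). T and NK cell markers summed to 691 to 878 and 706 to 1020, but most single markers of that list were lost. Cd3e, Cd3g, Klrd1 and Gzma were at 0 in all 3 GFP+ libraries, and Cd3d also in GFP+ marrow 2. In control marrow only Cd3e was at 0, in control marrow 3. Granulocyte precursor markers summed to 13300 to 15900 and 28500 to 31900, and mature neutrophil markers to 62400 to 77300 and 62100 to 97800. Only the Prdm16s marrow was selected for GFP, so these shifts cannot be told apart by selection and genotype, and their part in the lower means of mitosis genes was not tested.

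**Figure D3:**
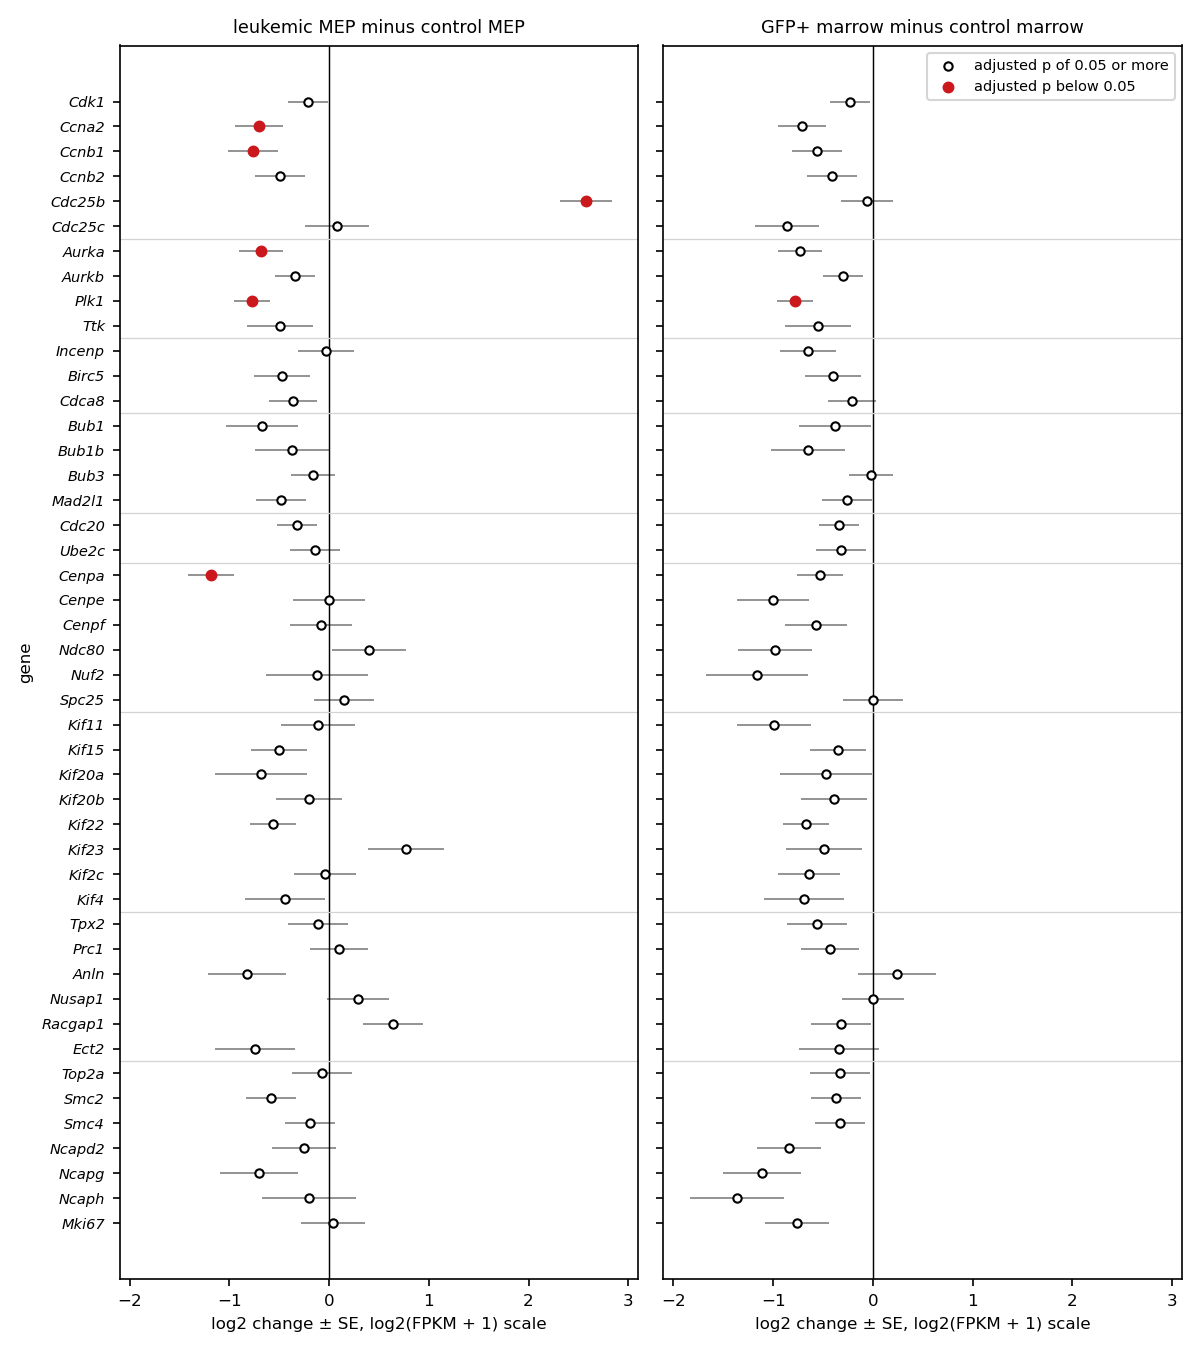
Log2 change ± SE of each mitosis gene on the log2(FPKM + 1) scale, leukemic MEP minus control MEP (left) and GFP+ marrow minus control marrow (right); filled red points passed at an adjusted p below 0.05. In MEP 6 genes passed and Cdc25b (2.58) lies far to the right of the others, and in marrow the points lie left of 0 in 43 of 46 genes while Plk1 passed.

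The change in MEP minus the change in marrow was tested for each gene. It passed for Cdc25b, at 2.64 ± 0.37 (adjusted p = 0.00191), the 1 gene of 46 called, against 4.89% of all genes (4.52% higher and 0.366% lower). For Plk1 the difference was 0.01 ± 0.26 with a 95% interval of -0.55 to 0.57, and for Aurka 0.05 ± 0.32 (-0.64 to 0.74). Cenpa, called in MEP and not in marrow, had a difference of -0.65 ± 0.32 (-1.35 to 0.05; adjusted p = 0.331), so its fall is not shown to differ between the populations. Ndc80 (1.37 ± 0.52, adjusted p = 0.187), Kif23 (1.26 ± 0.54, adjusted p = 0.25) and Racgap1 (0.95 ± 0.43, adjusted p = 0.27) had an unadjusted p below 0.05 and did not pass.

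The control populations differed in Cdc25b as well. Control MEP had 2.68 ± 0.341 FPKM and control marrow 11.2 ± 2.98 (SD, n = 3 each), a log2 difference of -1.71 ± 0.26 (adjusted p = 0.000767; -1.06 with a pseudocount of 5). It was the 1 gene of 46 called, where 15% of all genes were (2.63% higher and 12.3% lower in control MEP). Cenpa was higher in control MEP by 0.70 ± 0.23 (adjusted p = 0.0599) and Kif23 lower by a log2 difference of -1.12 ± 0.38 (adjusted p = 0.0711). Without leukemic MEP 3 both passed (adjusted p = 0.015 and 0.0254) and 3 genes were called. Without leukemic MEP 1 Kif23 passed, and without leukemic MEP 2 Cenpa, so 2 were called in each. Over all genes the calls between the controls were 2794 without leukemic MEP 3, 1711 without leukemic MEP 1 and 1815 without leukemic MEP 2. The main fit called 1716. The rise without leukemic MEP 3 was thus not particular to mitosis genes. In 3 genes each control MEP library lay above each control marrow library (Ccnb1, Mad2l1 and Cenpa; 20.3% of all genes did so), and in 2 below (Cdc25b and Kif23; 26.1% of all genes). This comparison shares its libraries with both changes above.

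Between the Prdm16s populations 0 of 46 genes passed (3.05% of all genes did, 0.977% higher and 2.08% lower in leukemic MEP), and 8 had an unadjusted p below 0.05 in limma, as had 2165 of all 11462 genes. The share of all genes depended on leukemic MEP 3. Without that library 1779 of all 11462 genes passed and 0 of 46, and with voom 1780 and 0 of 46. With the libraries rescaled to equal FPKM totals 3 passed, all higher in leukemic MEP (Cdc25b, Cdc25c and Mki67), and with array weights 3 (Cdc25b higher, Anln and Ect2 lower). Of all genes 634 and 3285 passed with these 2 settings. Estimates were above 0 in 36 of 46 (5751 of all 11462 genes). In 6 genes each leukemic MEP library lay above each GFP+ marrow library (Cdc25b, Incenp, Cenpe, Kif11, Ncapd2 and Mki67; 7.62% of all genes did so), and in 0 below (8.3% of all genes). Cdc25b had a difference of 0.94 ± 0.26 (adjusted p = 0.077). Over the 4 groups its order was control MEP, GFP+ marrow (10.6 ± 2.42 FPKM), control marrow and leukemic MEP (21.2 ± 4.21), and the 2 marrow groups did not differ beyond their spread.

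Across the groups Cdc25b varied most of the mitosis genes. The range of the 4 group means had a median of 0.67 log2 units over the 46 genes and of 0.92 over all genes, and was above 1 in 11 of 46 (23.9%, against 45.2% of all genes). It was lowest for Bub3 (0.16), the checkpoint gene that was at 143 to 243 FPKM in all libraries, and highest for Cdc25b (2.58), followed by Ncaph (1.36) and Cenpa (1.23). The highest mean was that of control MEP in 25 genes, control marrow in 12, leukemic MEP in 7 and GFP+ marrow in 2. The lowest was that of GFP+ marrow in 33 genes, leukemic MEP in 8, control MEP in 5 and control marrow in 0. Summed over the 46 genes, FPKM was 2835 to 3098 in control MEP. It was 2026, 2870 and 2203 in leukemic MEP, 2674 to 2897 in control marrow and 1987 to 2133 in GFP+ marrow. The GFP+ marrow sums all lay below the control marrow sums, whereas leukemic MEP 2 reached the control range.

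**Figure D4:**
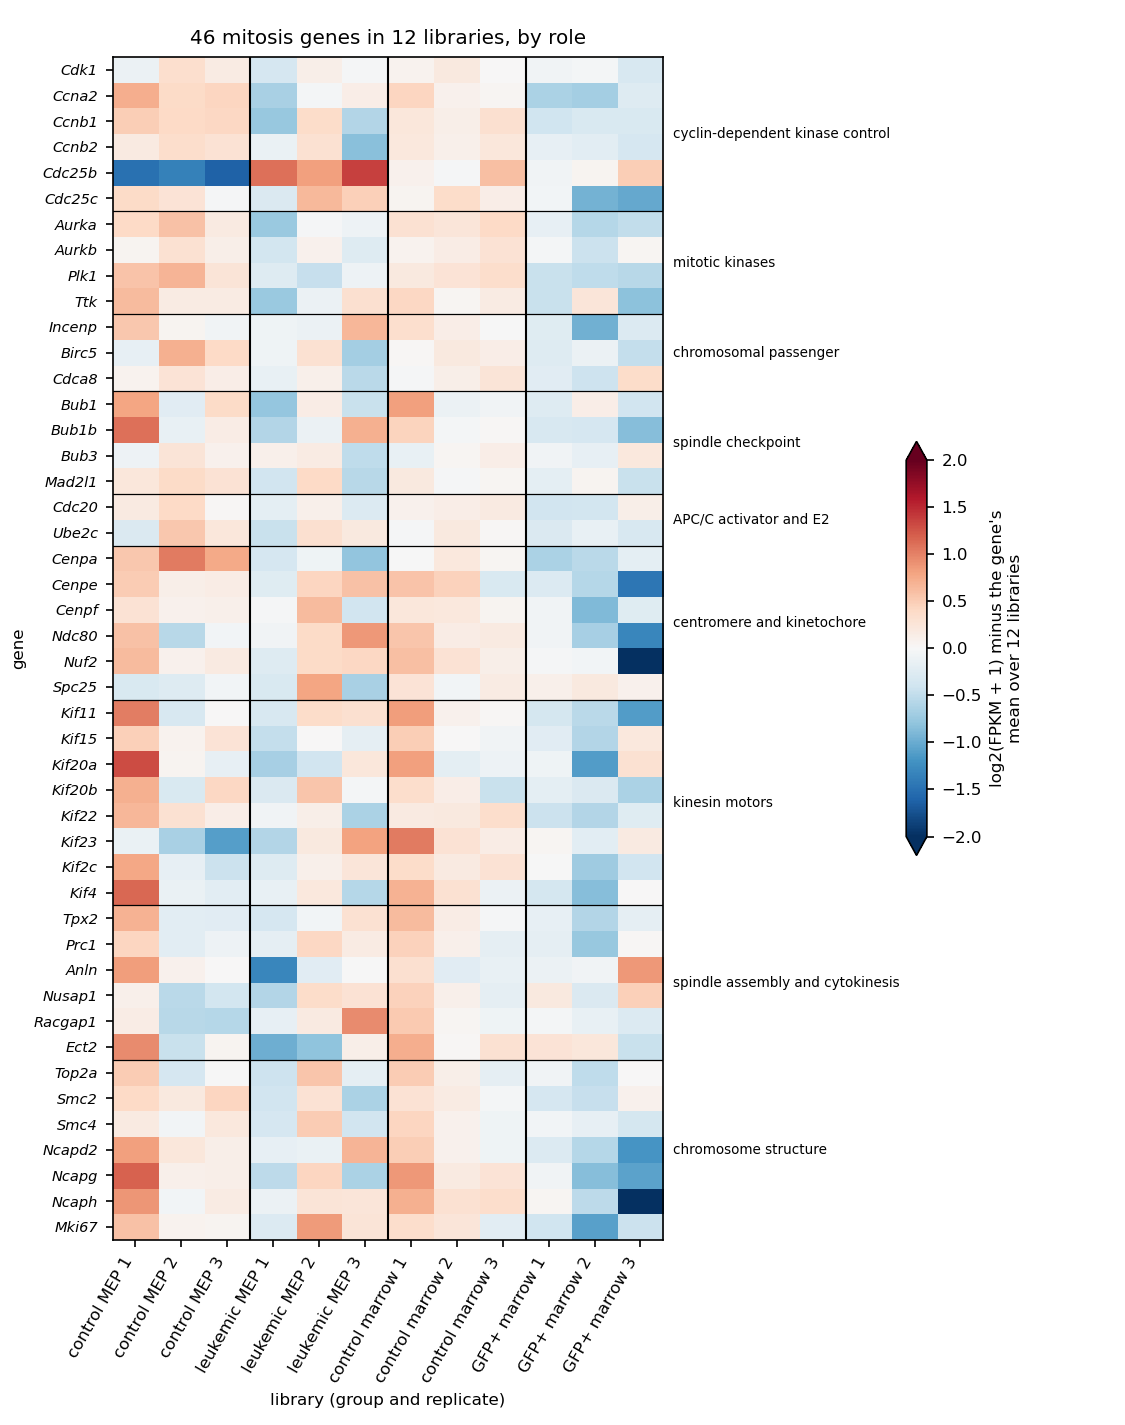
log2(FPKM + 1) of each mitosis gene (rows, by role) in each library (columns), minus the gene's mean over the 12 libraries; red is higher, blue lower, and values past 2 in either direction take the end colours. Cdc25b has its own pattern (2.35 to 3.03 FPKM in control and 17.1 to 25.5 in leukemic MEP), and control MEP 1 and control marrow 1 are red for many genes of the lower rows.

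Libraries of 1 group differed by gene length. Control MEP 1 was the highest of its group in 30 genes and control marrow 1 in 31, and 27 genes were in both sets (90% of the first and 87.1% of the second). Over the 23 longer mitosis genes (3559 to 11122 bases) control MEP 1 was above the mean of control MEP 2 and 3 by a median of 0.72 log2 units, and over the 23 shorter (931 to 3416 bases) by 0.02. The same medians for control marrow 1 were 0.51 and -0.01. Across the 46 genes the difference had a Spearman correlation with length of 0.49 in MEP and 0.61 in marrow, and across all genes tested 0.49 and 0.38; the genes share these libraries and are not replicates. Kif20a had the highest difference in both (1.34 in MEP and 0.98 in marrow), and Ube2c, the shortest gene, was below 0 in both (-0.67 and -0.13). Without control MEP 1 and control marrow 1 the calls were 3 in MEP (Cdc25b, Plk1 and Cenpa) and 0 in marrow (Plk1 at -0.82, adjusted p = 0.0588), and 43 of 46 marrow estimates were again below 0. In leukemic MEP the libraries differed in another way: leukemic MEP 2 was the highest in 29 genes and leukemic MEP 1 the lowest in 29.

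**Figure D5:**
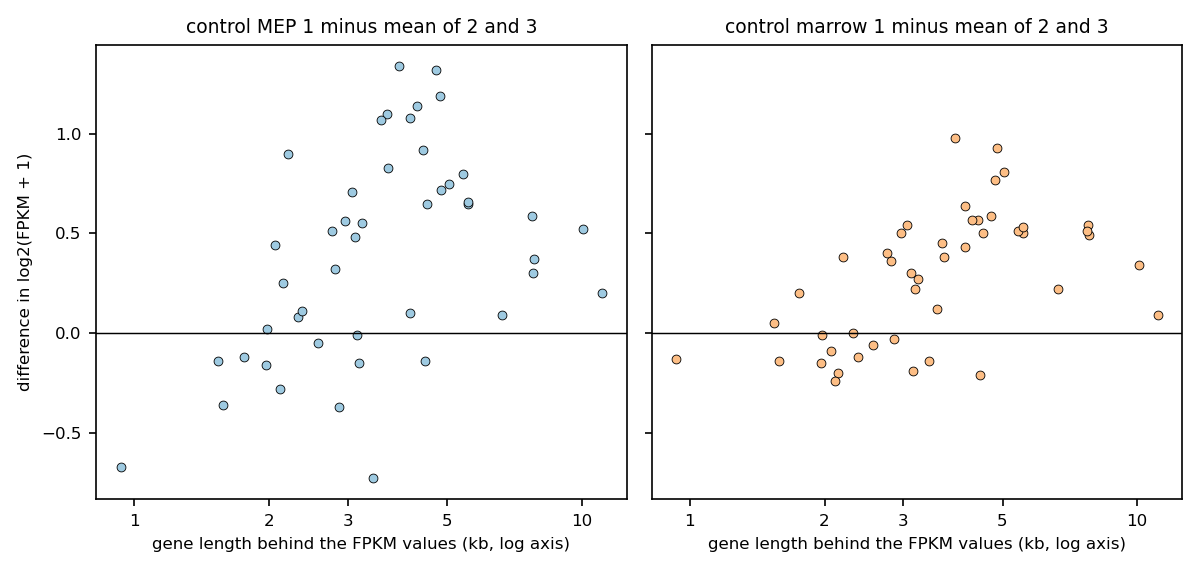
Difference of replicate 1 from the mean of replicates 2 and 3 in log2(FPKM + 1), for control MEP (left) and control marrow (right), against the gene length behind the FPKM values in kilobases (log axis); each point is a mitosis gene. Longer genes lie higher in both panels (medians 0.72 and 0.51 over the longer 23, 0.02 and -0.01 over the shorter).

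Of the 145 further mitosis genes, 143 were tested. In leukemic against control MEP 4 rose and 10 fell (9.79%, against 26% of all genes), with a median of -0.34, and in marrow 5 fell and 0 rose (3.5%, against 9.05%), with a median of -0.29. Of 19 inner kinetochore genes 3 fell in MEP, among them Oip5, which helps load Cenpa (-1.47 ± 0.45, adjusted p = 0.0301), and Cenph (-0.96 ± 0.24, adjusted p = 0.0122). Of 14 outer kinetochore genes 3 fell, among them Zwint (-1.16 ± 0.38, adjusted p = 0.0398) and Spdl1 (-0.97 ± 0.29, adjusted p = 0.0264). Reads of Oip5 and of the mitosis gene Nusap1 may be mixed, since the genes overlap. In marrow 0 of 19 inner and 1 of 14 outer kinetochore genes fell, Dsn1 (-1.24 ± 0.25, adjusted p = 0.00944). Of 17 APC/C subunits and regulators 1 fell in MEP, Anapc1 (-1.28 ± 0.37, adjusted p = 0.0231), and 0 in marrow. Cohesin and separase genes had 1 of 18 fall in MEP, the cohesin release factor gene Wapl (-0.88 ± 0.30, adjusted p = 0.0475), and 0 in marrow.

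For the counts that follow, 13.7% of all genes rose and 12.3% fell in MEP, and 3.02% rose and 6.03% fell in marrow. Of 31 centrosome and spindle genes 1 fell in MEP (3.23%), Haus4 (-0.74 ± 0.20, adjusted p = 0.0164), and 2 in marrow (6.45%), Hmmr (12 ± 2.47 FPKM in control and 5.57 ± 1.64 in GFP+ marrow, adjusted p = 0.0494) and the kinesin gene Kif18b (13.1 ± 3.26 and 5.94 ± 0.182, adjusted p = 0.0379). Of 5 checkpoint regulators 1 rose in MEP, Mad2l1bp, whose protein takes the checkpoint complex apart (0.69 ± 0.24, adjusted p = 0.0488), and 0 changed in marrow. Of 15 tested regulators of mitotic entry and exit 1 rose in MEP, the phosphatase gene Cdc14a, below 10 FPKM in all groups, and 1 fell in marrow, Gtse1 (-1.99 ± 0.45, adjusted p = 0.0162). Of 7 cytokinesis genes 2 rose in MEP, Cep55 (2.21 ± 0.38, adjusted p = 0.00139) and Arhgef39, and 0 changed in marrow. Cep55, whose protein gathers the abscission machinery at the midbody, had mean levels of 0.82 ± 0.147 FPKM in control and 7.64 ± 2.45 in leukemic MEP (SD, n = 3 each). Control marrow had 8.98 ± 4.96 and GFP+ marrow 9.9 ± 3.74, so control MEP was the low group. It was below control marrow by a log2 difference of -2.35 ± 0.38 (limma, adjusted p = 0.00117). Of the 3 condensin II genes 0 passed in either comparison.

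Of 14 genes of the transcription regulators of these promoters, 1 fell in both comparisons (7.14% in each). Of all genes 12.3% fell in MEP and 6.03% in marrow. The gene was E2f4, the E2F of the complex that represses cell cycle genes in resting cells. Its mean FPKM was 71.8 ± 8.25 in control and 31.3 ± 7.23 in leukemic MEP (SD, n = 3 each; log2 change -1.19 ± 0.23, adjusted p = 0.00286). In marrow it was 40.9 ± 11.2 in control and 19.6 ± 1.13 in GFP+ cells (adjusted p = 0.0185). The other 13, Foxm1, Mybl2, the Lin genes and the NF-Y subunits among them, did not pass in either.

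DNA replication genes act before mitosis in the same cycle. Of 44 tested, 22 fell and 0 rose in MEP (50%, against 26% of all genes), with a median of -0.80, and 11 fell and 0 rose in marrow (25%, against 9.05%), with a median of -0.64. Orc2, of the origin recognition complex, had a log2 change of -1.88 ± 0.30 in MEP (adjusted p = 0.000806) and of -1.44 ± 0.30 in marrow (adjusted p = 0.0108). Cdc6, the licensing factor, had -1.83 ± 0.27 (adjusted p = 0.000518) and -1.37 ± 0.27 (adjusted p = 0.00821). The difference between these genes and the mitosis genes was not tested.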

How the data were processed

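RNA-seq was done on 12 samples, using Smart-seq2 for cDNA, a Nextera XT kit for libraries and a HiSeq2500, per the labels' protocols. The authors deposited FPKM values per gene. Per the submitters' processing notes, CASAVA, bcl2fastq, STAR 2.5.3a, DESeq2 1.18.1 and mm10 were used; the counter of reads and the annotation behind it, and whether strand was used, were not given in the sources used here. The deposited FPKM decode to whole reads for all 16728 genes above 0 (tolerance 0.02) with library size factors in place of totals, so FPKM totals differ between libraries (393786 to 622546).

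limma 3.58.1 (R 4.3.3) was fitted to log2(FPKM + 1) over 11462 genes, as 1 model of the 4 groups with a trend on the mean and 8 residual degrees of freedom, and tested on simulated data. Genes were called at a Benjamini-Hochberg adjusted p below 0.05. The pseudocount of 1 understates changes of low genes. With 3 libraries against 3, no exact permutation p goes below 0.1. Alternatives were other pseudocounts, filters and scalings, array weights, voom on the recovered reads, separate fits, a replicate block and left-out libraries. Promoter windows were scanned in Python 3.11.15.

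The members and gene lists were chosen with earlier results of these data known. Full statistics go to 12 fixed genes (Cdk1, Ccnb1, Ccnb2, Plk1, Aurka, Aurkb, Bub1b, Mad2l1, Cdc20, Ube2c, Top2a and Mki67) and to the called genes of each comparison, up to the 6 largest in each direction. Of the other lists, up to 2 called genes in each direction with at least 10 FPKM in the highest group are named. Other genes with library values (Nuf2, Ncaph, Kif23, Anln, and Cenpa, Ccna2 and Cenpe in marrow), and Cdc14a and Cep55, were chosen after their values were seen.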

Additional observations from a re-analysis of the deposited data

Results flagged for a closer look

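The change of Cdc25b differed between the populations: the change in MEP minus the change in marrow was 2.64 ± 0.37 on the log2 scale (limma, adjusted p = 0.00191). It was 2.45 to 2.81 in the fits without 1 library, 1.81 with a pseudocount of 5, and passed in each of 23 alternatives. All 3 leukemic MEP libraries lay above all 3 control MEP libraries, while the marrow groups overlapped.

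The cytokinesis gene Arhgef39, a guanine nucleotide exchange factor gene, also had different changes, by 1.90 ± 0.32 (adjusted p = 0.00508). It was at 19.2 ± 2.16 FPKM in control MEP, 53.1 ± 4.93 in leukemic MEP, 50.3 ± 1.08 in control marrow and 37.1 ± 10.7 in GFP+ marrow (SD, n = 3 each). It was the only one of the 143 further mitosis genes tested whose difference passed (0.699%, against 4.89% of all genes).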

How the results depend on the processing

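The median changes stayed below 0 in all 24 alternatives, from -0.40 to -0.10 in MEP and -0.70 to -0.37 in marrow. Counts of mitosis genes called moved more. In MEP (6) the count was 3 with equal FPKM totals, 2 with quantile normalization, 2 in a fit of the MEP groups alone, 21 with array weights (1 higher and 20 lower, while 6151 of all genes were called) and 3 to 9 without 1 library. In marrow (1) the count was 3, 2, 5 and 8 under the same 4 settings, 4 with voom on the recovered reads and 0 to 5 without 1 library. Over all genes the marrow calls were 1039, 1059, 1769, 3453, 1908 and 484 to 2137, against 1037 in the main fit. For the difference of the changes (1) the count was 2 with array weights, where 2966 of all genes were called (560 in the main fit). Between the controls (1) the count was 2 with equal totals, 3 in their own fit, 5 with array weights, 3 with voom and 1 to 3 without 1 library. Calls over all genes were 1918, 3641, 5511, 2728 and 1059 to 2794 there, against 1716 in the main fit. Between the Prdm16s groups (0) the count was 3 with equal totals and 3 with array weights, and 634 and 3285 over all genes (350 in the main fit). The causes were not tested.

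Within each change the replicate numbers did not pair the libraries: deviations of same-numbered libraries had r = -0.16, -0.05 and -0.15 in MEP and 0.02, -0.06 and 0.02 in marrow, and no library there correlated best with its own number. Across the populations r was 0.50, 0.29 and 0.07 between the controls (best with its own number in 2 of 3 libraries) and 0.09, 0.22 and 0.15 between the Prdm16s groups (3 of 3), a hint from the data and not from the labels. With the number as a replicate block 3 genes were called in MEP (Cdc25b, Plk1 and Cenpa) and 1 in marrow (Plk1), 1 between the controls and 0 between the Prdm16s groups. Over all genes the block fit called 2830, 932, 1607 and 287. Pairs left out together were chosen after seeing the data. Without control MEP 1 and control marrow 1 the counts were 3 in MEP and 0 in marrow, and without leukemic MEP 3 and GFP+ marrow 2 the count between the controls was 3. The calls over all genes beside these counts were 1905, 482 and 2883.

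Some uncalled MEP changes turned sign. Cdk1 was 0.08, Ube2c 0.14 and Top2a 0.11 with quantile normalization, and Mki67 -0.22 with array weights. Without 1 library, Bub1b ran from -0.72 to 0.00 (without control MEP 1), Ube2c from -0.36 to 0.09 (above 0 without control MEP 2, at 0.05, or leukemic MEP 1), Top2a from -0.36 to 0.15 (above 0 without control MEP 1 or leukemic MEP 1 or 3) and Mki67 from -0.24 to 0.32 (below 0 without control MEP 2 or 3 or leukemic MEP 2). Without both controls numbered 1, Bub1b was 0.00 and Top2a 0.15, and without leukemic MEP 3 and GFP+ marrow 2 Top2a was 0.01. Equal totals moved the median of all genes to -0.25 in marrow, 0.18 between the controls and 0.36 between the Prdm16s groups, and quantile normalization to -0.10 in MEP and 0.26 between the controls; for the difference of changes they gave 0.25 and -0.15, and voom 0.12. Over all genes the marrow calls were 346 higher and 691 lower, and 195 and 844 with equal totals. For the difference they were 518 and 42, and 312 and 72 with quantile normalization. Between the controls they were 302 and 1414, 592 and 1326 with equal totals, 724 and 1084 with quantile normalization and 807 and 1921 with voom. Between the Prdm16s groups they were 112 and 238, 502 and 132 with equal totals and 83 and 111 with quantile normalization. Low depth of leukemic MEP 3 and GFP+ marrow 2 limits what their values can show.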
